A study of Mus musculus with 31 samples.

Results

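The 8 major milk protein genes of the mouse were followed in lactating mammary gland: the caseins Csn1s1, Csn1s2a, Csn1s2b, Csn2 and Csn3, and the whey and secreted proteins Wap, Lalba and Glycam1. They were chosen by name, matched by their GRCm39 symbols to Ensembl identifiers, and are 8 of the 55379 genes with counts. All 8 passed the filter on low counts that left 14362 genes to test. The C57BL/6J dams ate a breeder diet, which holds 4 mg/kg of folic acid (FA), or the same base diet with FA raised to 24 mg/kg, from 2 weeks before mating on. From embryonic day 13 they were injected with saline or with fluoxetine at 20 mg/kg body weight, a selective serotonin reuptake inhibitor. Glands were taken on lactation day 10, with 1 library of polyadenylated RNA per dam. The groups were breeder diet + saline (8 dams), breeder diet + fluoxetine (7 dams), FA diet + saline (8 dams) and FA diet + fluoxetine (8 dams). There was no diet without FA and no uninjected dam, so every difference below is between injected dams on a diet that held FA.

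Caseins assemble into micelles that carry calcium and phosphate in milk, and kappa-casein, the product of Csn3, sits at the surface and keeps the micelles from aggregating. Wap encodes whey acidic protein, the most abundant whey protein of mouse milk, and Lalba encodes alpha-lactalbumin, which joins a galactosyltransferase to make lactose. Glycam1 encodes a mucin-like glycoprotein that is secreted into milk. Transcription of these genes in the secretory epithelium is known to respond to prolactin through the kinase Jak2 and the factors Stat5a and Stat5b, together with glucocorticoid hormones.

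The 5 caseins lie in 1 cluster on chromosome 5 that spans 266 kb of GRCm39. From the first to the last, these are Csn1s1 (ENSMUSG00000070702) at chr5:87814067-87830437 on the plus strand, Csn2 (ENSMUSG00000063157) at chr5:87840483-87847489 on the minus strand, Csn1s2a (ENSMUSG00000061937) at chr5:87922426-87936656, Csn1s2b (ENSMUSG00000061388) at chr5:87955941-87972285 and Csn3 (ENSMUSG00000001622) at chr5:88073438-88080524, the last 3 on the plus strand. Wap (ENSMUSG00000000381) lies at chr11:6585482-6588637, Lalba (ENSMUSG00000022991) at chr15:98378281-98380602 and Glycam1 (ENSMUSG00000022491) at chr15:103471186-103473515, each on the minus strand.

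Upstream sequences from RefSeq were found for 6 of the 8 genes, and each matched GRCm39 at 1 place. They are shown for the 3 caseins whose count ratios to each other varied least, Csn1s1, Csn1s2a and Csn2, for Glycam1, which moved least with them, and for Wap, the gene with the most counts. Each run is the 250 bases before the RefSeq start, 5′ to 3′ on the strand of the gene, and capitals mark the letters TTCNNNGAA, the core of a STAT5 site.
Csn1s1, chr5:87813817-87814066, plus strand: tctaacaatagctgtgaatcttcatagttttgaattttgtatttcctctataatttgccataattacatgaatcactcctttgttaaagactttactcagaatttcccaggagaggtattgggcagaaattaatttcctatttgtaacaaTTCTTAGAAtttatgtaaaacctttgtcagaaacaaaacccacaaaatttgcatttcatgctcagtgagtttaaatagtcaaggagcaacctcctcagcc
Csn2, chr5:87847285-87847534, minus strand: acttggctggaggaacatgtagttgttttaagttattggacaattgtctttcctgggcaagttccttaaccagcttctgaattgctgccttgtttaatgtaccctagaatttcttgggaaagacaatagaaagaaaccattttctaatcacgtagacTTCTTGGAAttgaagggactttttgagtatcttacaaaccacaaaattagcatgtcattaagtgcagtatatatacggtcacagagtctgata
Csn1s2a, chr5:87922059-87922308, plus strand: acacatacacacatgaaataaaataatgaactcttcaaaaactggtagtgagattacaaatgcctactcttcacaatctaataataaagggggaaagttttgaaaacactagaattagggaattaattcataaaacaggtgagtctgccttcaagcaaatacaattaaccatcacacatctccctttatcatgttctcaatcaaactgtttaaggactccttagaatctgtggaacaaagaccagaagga
Glycam1, chr15:103473509-103473758, minus strand: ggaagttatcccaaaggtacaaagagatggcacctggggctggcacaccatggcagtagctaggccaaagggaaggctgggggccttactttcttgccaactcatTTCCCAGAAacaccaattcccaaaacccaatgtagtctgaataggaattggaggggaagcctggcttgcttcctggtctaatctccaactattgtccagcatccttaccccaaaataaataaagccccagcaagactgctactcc
Wap, chr11:6588650-6588899, minus strand: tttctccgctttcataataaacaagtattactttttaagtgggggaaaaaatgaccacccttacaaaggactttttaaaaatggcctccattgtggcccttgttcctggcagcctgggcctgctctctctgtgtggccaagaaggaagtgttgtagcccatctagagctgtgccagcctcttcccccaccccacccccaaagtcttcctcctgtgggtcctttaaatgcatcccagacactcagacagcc
The match in Csn1s1 lay 100 to 92 bases before the start, that in Csn2 at 93 to 85 and that in Glycam1 at 145 to 137. The windows of Csn1s2a and Wap held none. Of the Csn2 window, 205 bases lie inside the gene as GENCODE draws it, since the RefSeq start is downstream of the GENCODE start. At Csn1s2a and Wap the RefSeq start is upstream of the GENCODE start (offsets of -117 and -12 bases). The bases between those starts were not searched. On either strand, TTCNNNGAA was found in 3 of the 6 members and in 7.02% of 32851 promoters of the same length. Of the other letters searched, TTGGC, the half-site of NF1 factors, was found in 4 of the 6 (41.5% of all), AGAACA, a glucocorticoid half-site, in Csn1s2a alone (16.1%), and TATAAA in 0 of 6 (12.4%). A match is a string of letters and was not tested for binding.

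The 8 genes held between 63.7% and 73.3% of all gene counts in 26 of the 31 libraries. Totals per library ranged from 15412542 to 36000439 gene counts, so counting error was small for every member. The remaining 5 libraries were lower: 62.7% in breeder diet + fluoxetine replicate 9, 60.9% in FA diet + saline replicate 3, 57.2% in FA diet + saline replicate 11, 49.8% in breeder diet + fluoxetine replicate 13 and 17.7% in FA diet + fluoxetine replicate 3. The last of these stood apart in its share and in the level of each member, and the fitted differences, ratio tests and correlations are given also without it. On the breeder diet, the mean share was 69.0% ± 1.82 (SD, n = 8) with saline and 64.8% ± 7.09 (SD, n = 7) with fluoxetine. On the FA diet, it was 67.8% ± 5.77 (SD, n = 8) with saline and 61.6% ± 17.8 (SD, n = 8) with fluoxetine, or 67.8% ± 2.16 (SD, n = 7) without FA diet + fluoxetine replicate 3. The medians of these groups were 69.7%, 67.5%, 69.3% and 67.8%, all inside the range of breeder diet + saline.

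**Figure D1:**
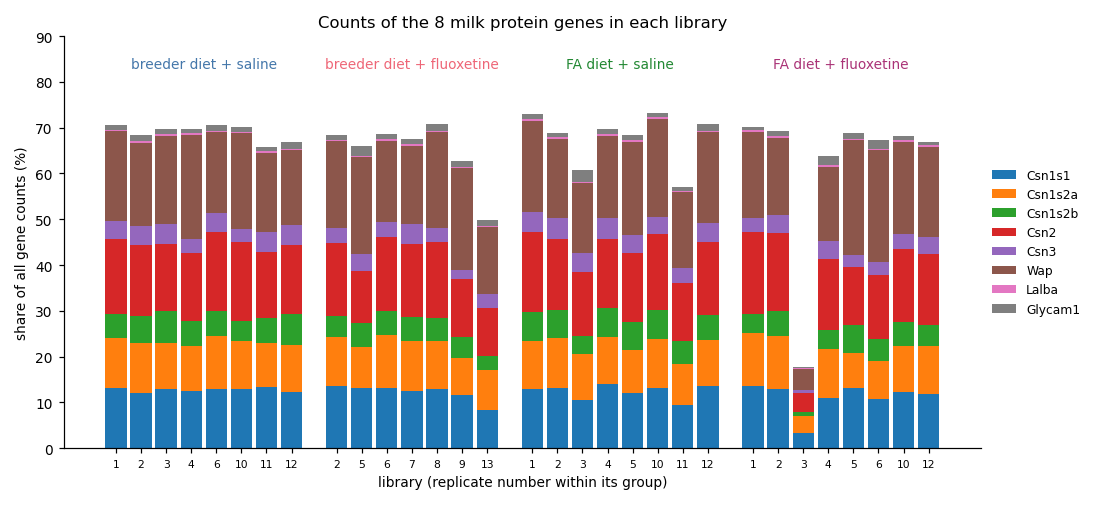
Share of all gene counts (%) held by each of the 8 genes in each of the 31 libraries, stacked, with libraries grouped by diet and drug and labelled by replicate number. Most bars reach 63.7% to 73.3%, and FA diet + fluoxetine replicate 3 reaches 17.7%.

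Other genes took a large part of the counts in 3 of the 5 low libraries. Rn18s-rs5, a copy of a ribosomal RNA gene, took 14.1% of the counts in FA diet + saline replicate 11 and 5.44% in breeder diet + fluoxetine replicate 9, against at most 2.53% in the 26 libraries of higher share. The 6 most counted copies of mitochondrial genes took 19.9% in FA diet + fluoxetine replicate 3 and at most 6.78% in any other library. Without these 7 genes in the total, which were chosen after their values were seen, the 8 milk protein genes held 68.2% in FA diet + saline replicate 11 and 71.4% in breeder diet + fluoxetine replicate 9. They held 51.6% in breeder diet + fluoxetine replicate 13 and 22.6% in FA diet + fluoxetine replicate 3. In that last library, the summed level of 6 luminal epithelial markers depended on the scaling. It was the lowest of all after TMM scaling (474 CPM, a count scaled to library size, against 674 to 1043 in the other 30) and the highest of all by library size alone (1440 CPM, against 567 to 1334), the TMM factor of this library being 3.04. Elf5 weighs most in this sum, with 375167 counts over all libraries against 78092 for Epcam, the next. After TMM scaling, Elf5 alone ran from 149 to 699 CPM in FA diet + fluoxetine, and was at 448 CPM or above in the other groups. A sum without Elf5 is not given, and the other luminal markers need not follow the sum. On both scales, the sums of 6 adipocyte, 4 fibroblast and 6 leukocyte markers were the highest of the 31. After TMM scaling, the adipocyte sum was 855 against 151 to 412 CPM. The fibroblast sum was 619 against 32.5 to 160 CPM, and the leukocyte sum 51.7 against 8.95 to 19.7 CPM. Fabp4 weighs most in the adipocyte sum, with 164087 counts over all libraries against 17192 for Cidec, the next. Single markers of these lists need not follow their sum. No marker of these lists was at 0 over all libraries, and in the other 30 libraries the ranges of the 4 groups overlapped in each list. For the luminal epithelium list the summed, TMM-scaled level ran from 745 to 967 CPM with breeder diet + saline, 692 to 1023 with breeder diet + fluoxetine, 674 to 1034 with FA diet + saline and 683 to 1043 with FA diet + fluoxetine other than replicate 3. Their part in the milk protein values was not tested. In whole tissue, fewer secretory cells and less milk protein RNA per cell cannot be told apart.

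Wap had the most counts of any gene, with 4 of the caseins, Csn2, Csn1s1, Csn1s2a and Csn1s2b, at ranks 2 to 5 and Csn3 at rank 6. Glycam1 ranked 9 and Lalba 18. Over the 31 libraries the median share of all counts was 19.0% for Wap, 15.5% for Csn2, 12.8% for Csn1s1, 10.3% for Csn1s2a, 5.25% for Csn1s2b, 3.71% for Csn3, 1.13% for Glycam1 and 0.343% for Lalba. The 5 caseins together had a median of 2.53 counts per Wap count, with 1.67 to 3.02 over the libraries. Divided by transcript length and set against Csn2, Wap stood first on each of 3 measures of length, with a median of 8.26 for the union of annotated exons, 2.90 for the canonical transcript and 5.24 for the longest transcript. Csn1s2b, Csn3, Glycam1 and Lalba filled the last 4 places per length, in this order, on each measure. The order of Csn2, Csn1s2a and Csn1s1 changed with the measure: Csn1s2a was at 1.33 of Csn2 by the union of exons and at 0.973 by the canonical transcript. Levels per length of these 3 caseins were therefore not ranked.

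The members differed in how much their share of counts varied between dams. Over the 30 libraries other than FA diet + fluoxetine replicate 3, the coefficient of variation was 10.3% for Csn1s1, 10.4% for Csn1s2a, 11.8% for Csn2 and 13.4% for Wap. It was 16.7% for Csn1s2b and 18.0% for Csn3. The least abundant members varied most, with 25.6% for Lalba and 34.2% for Glycam1. With that library the values were 15.7% to 36.9%, and Csn1s2a was lowest and Glycam1 highest. Glycam1 reached 2.73% of counts in FA diet + saline replicate 3 and 2.24% in breeder diet + fluoxetine replicate 5, while every other library was at or below 1.93%.

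Next, the effect of fluoxetine was asked for each gene. Levels are given in kCPM, which is CPM after TMM scaling divided by 1000. This scaling sets the milk genes against the other genes of the library. For Csn3, breeder diet + saline ranged from 30.5 to 43.7 kCPM (median 40.0) and breeder diet + fluoxetine from 20.7 to 43.8 (median 34.3). FA diet + saline ranged from 32.9 to 57.5 kCPM (median 45.9) and FA diet + fluoxetine from 2.38 to 41.8 (median 33.5). On either diet, the fluoxetine dams had the lower median and the groups overlapped. The Csn3 difference, averaged over the diets, was -0.44 on the log2 scale (SE 0.204, 15 fluoxetine and 16 saline dams), with an adjusted p of 0.481 (edgeR, quasi-likelihood test, Benjamini-Hochberg adjustment over 14362 genes). Without FA diet + fluoxetine replicate 3, it was -0.36 (SE 0.101) with an adjusted p of 0.334 by the same edgeR test. Csn3 thus had an unadjusted p below 0.05 in both fits and passed the false discovery rate (FDR) of 10% in neither.

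Csn1s2b, an alpha-casein gene next to Csn1s2a in the cluster, had the second lowest fluoxetine value. It ranged from 45.7 to 69.7 kCPM (median 57.0) in breeder diet + saline and from 20.4 to 56.0 (median 52.3) in breeder diet + fluoxetine. On the FA diet it ranged from 31.6 to 85.2 kCPM (median 71.4) with saline and from 3.36 to 71.8 (median 49.1) with fluoxetine. The medians were again lower with fluoxetine and the groups overlapped. The fitted log2 difference was -0.39 (SE 0.224) with an adjusted p of 0.571 in edgeR's quasi-likelihood test, and -0.31 (SE 0.131) with an adjusted p of 0.487 without FA diet + fluoxetine replicate 3.

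The other caseins had smaller fitted differences, of -0.21 (SE 0.210) for Csn2, -0.20 (SE 0.190) for Csn1s2a and -0.18 (SE 0.208) for Csn1s1. They were -0.14 (SE 0.117), -0.13 (SE 0.104) and -0.10 (SE 0.115) without FA diet + fluoxetine replicate 3. Csn2, the beta-casein gene, ran from 121 to 180 kCPM (median 157) with saline and from 66.0 to 188 (median 161) with fluoxetine on the breeder diet. On the FA diet, Csn2 ran from 113 to 233 kCPM (median 179) with saline and from 13.5 to 196 (median 151) with fluoxetine. The medians were close on the breeder diet and lower with fluoxetine on the FA diet, and the 4 groups overlapped.

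Among the whey proteins, Wap was at -0.088 (SE 0.223) and Lalba at -0.20 (SE 0.183), and Glycam1 was at -0.026 (SE 0.218). With saline and fluoxetine, Wap medians were 187 and 194 kCPM on the breeder diet and 219 and 194 on the FA diet. The normal 95% interval for the Wap difference ran from -0.53 to 0.35, so differences of either sign were compatible with these data. In the same order, Lalba medians were 3.69, 3.06, 4.05 and 2.99 kCPM, and those of Glycam1 11.1, 12.9, 13.4 and 12.1 kCPM. Without FA diet + fluoxetine replicate 3, Wap was at -0.0094 (SE 0.127), Lalba at -0.14 (SE 0.136) and Glycam1 at 0.052 (SE 0.144), so that 7 of the 8 fitted values were below 0.

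In all, 8 of 8 fitted fluoxetine values were below 0, with a median of -0.20 against 0.019 for all genes tested, of which 46.5% were below 0. The medians were -0.13 and -0.0071 without FA diet + fluoxetine replicate 3. At the FDR of 10%, 0 of the 8 passed, where 0.0209% of all genes did (3 of 14362). At an unadjusted p of 0.05 or below, 1 of the 8 (Csn3) passed, where 9.92% of all genes did, so the count of members was near the background. Once FA diet + fluoxetine replicate 3 was left out, 2 of the 8 passed (Csn3 and Csn1s2b), where 9.21% of all genes did. With library size alone as the scale, 2 of the 8 passed, where 3059 of 14362 genes did. With the replicate number as a block, 0 of the 8 passed, where 967 of 14362 genes did. Of 31 fits that each left out 1 library, 24 gave 1 member, 6 gave 0 (without breeder diet + saline replicate 3, breeder diet + fluoxetine replicates 9 and 13, and FA diet + saline replicates 1, 2 and 4) and 1 gave 2. The 8 genes share dams and scaling and are not independent of each other. With library size alone as the scale, the median of all genes moved from 0.019 to 0.26 and that of the 8 genes to -0.11, with 7 of the 8 below 0.

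**Figure D2:**
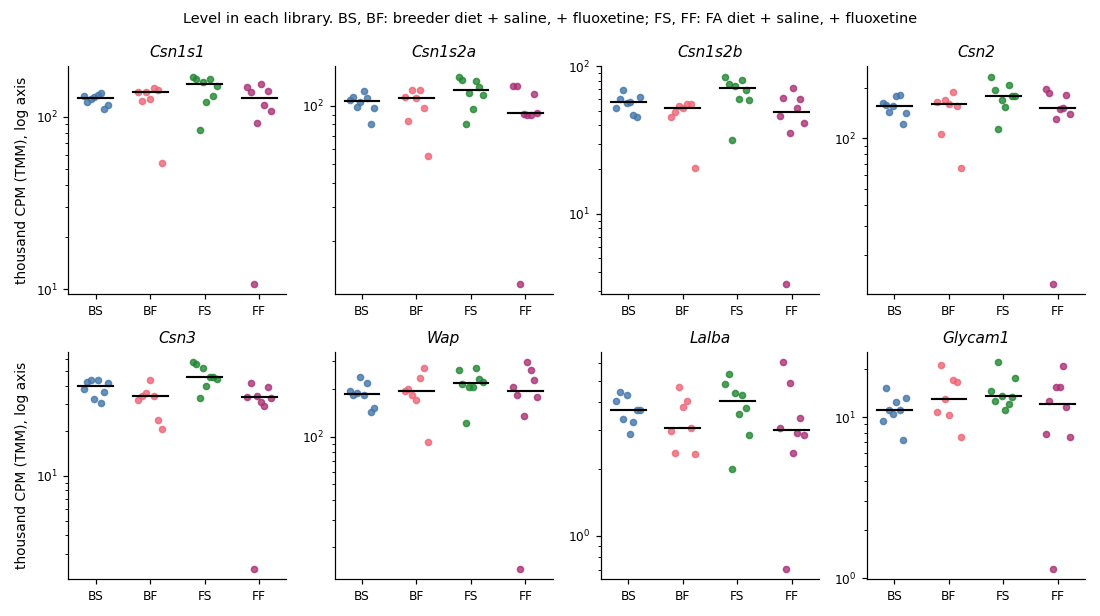
Level of each gene in kCPM after TMM scaling, on a log axis, with 1 point per library and a line at the median of each group. FA diet + fluoxetine replicate 3 is the lowest point in each panel.

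The FA diet was compared with the breeder diet in 16 and 15 dams. The 8 fitted log2 differences lay between 0.024 (Lalba) and 0.11 (Csn3 and Csn1s2b), each smaller than its SE. None passed at the FDR of 10% (0% of all genes did) or at an unadjusted p of 0.05, where 5.08% of all genes did, and the lowest adjusted p in edgeR's quasi-likelihood test was 0.990. Their median was 0.073, against 0.017 for all genes. Without FA diet + fluoxetine replicate 3, the values were higher, from 0.094 to 0.19 (median 0.16, against -0.0052 for all genes), and the lowest adjusted p was 0.731, for Csn3, in the same edgeR test. With library size alone as the scale, all 8 were below 0, from -0.093 to -0.021.

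For the question whether the fluoxetine difference depended on diet, the fit gave values below 0 for all 8 genes, that is, lower on the FA diet. They ran from -0.087 for Lalba to -0.62 for Glycam1 (SE 0.436), with a median of -0.29 against 0.035 for all genes. None of the 8 passed at the FDR of 10% (0% of all genes) or at an unadjusted p of 0.05 (3.84% of all genes), and the lowest adjusted p in edgeR's quasi-likelihood test was 0.977. The median was -0.13, against -0.011 for all genes, without FA diet + fluoxetine replicate 3. The values were then -0.16 for Csn1s1, -0.14 for Csn1s2a, -0.12 for Csn1s2b, -0.054 for Csn2, -0.18 for Csn3, -0.078 for Wap, 0.052 for Lalba and -0.47 for Glycam1. Within the breeder diet, fluoxetine minus saline was -0.27 for Csn3, -0.24 for Csn1s2b, 0.032 for Wap and 0.28 for Glycam1. Within the FA diet the same 4 genes were at -0.62, -0.53, -0.21 and -0.34, and without FA diet + fluoxetine replicate 3 at -0.45, -0.37, -0.049 and -0.18.

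**Figure D3:**
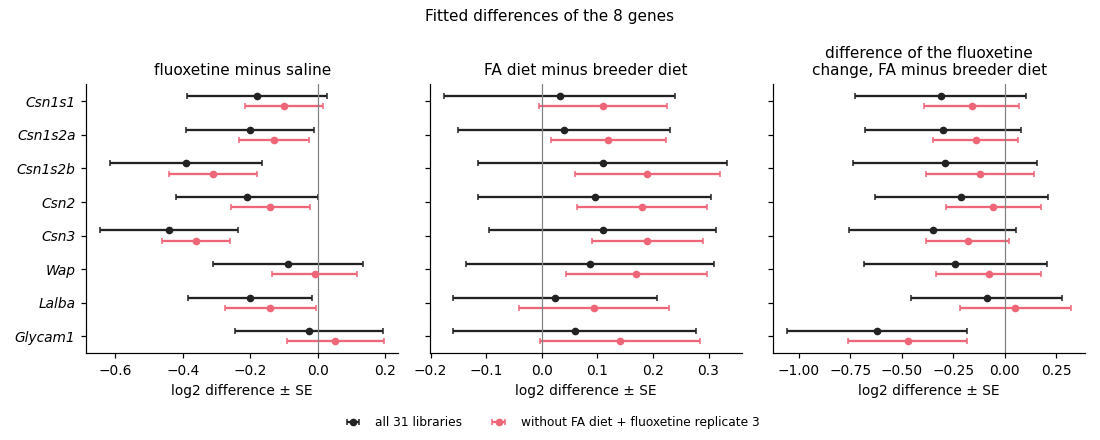
Fitted log2 differences ± SE of the 8 genes for fluoxetine minus saline, FA diet minus breeder diet, and the difference of the fluoxetine change between diets, with all 31 libraries (black) and without FA diet + fluoxetine replicate 3 (red). Csn3 and Csn1s2b have the lowest fluoxetine values in both fits, and the errors are smaller without that library.

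A ratio of raw counts within 1 library does not depend on how the library is scaled. Counts per Csn2 count were compared between drugs within diet and between diets within drug, by two-sided exact permutation tests. For Csn3, the ratio on the breeder diet was 0.253 ± 0.0485 (SD, n = 8) with saline and 0.236 ± 0.0673 (SD, n = 7) with fluoxetine. On the FA diet it was 0.266 ± 0.0295 (SD, n = 8) and 0.212 ± 0.0313 (SD, n = 8). It was 0.853-fold with fluoxetine and below the saline median of its diet in 11 of 15 dams (exact permutation p = 0.0351, adjusted p = 0.398 over 14 ratio tests). Csn1s2b per Csn2 was 0.878-fold, below the median in 13 of 15 dams (exact permutation p = 0.0568, adjusted p = 0.398). Without FA diet + fluoxetine replicate 3, the exact permutation p was 0.0501 for Csn3 and 0.0922 for Csn1s2b. None of the 14 ratios to Csn2 passed a threshold of 0.05 after adjustment, and all 7 FA ratios lay between 0.948-fold and 0.991-fold.

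Ratios to Wap were an alternative to those to Csn2 and were adjusted apart from them. They gave 1 call. On the breeder diet, Csn1s2b was at 0.306 ± 0.0644 (SD, n = 8) counts per Wap count with saline and at 0.249 ± 0.0366 (SD, n = 7) with fluoxetine. On the FA diet it was at 0.306 ± 0.0374 (SD, n = 8) with saline and 0.248 ± 0.0401 (SD, n = 8) with fluoxetine. The ratio was 0.815-fold with fluoxetine and was below the saline median of its diet in 14 of 15 dams (exact permutation p = 0.00178, adjusted p = 0.0249 over the 14 ratios to Wap). The log2 difference was -0.28 within the breeder diet and -0.31 within the FA diet. Without FA diet + fluoxetine replicate 3, the adjusted p was 0.0372 by the same exact permutation test. With each library left out in turn, 29 of 31 repeats passed 0.05, and the adjusted p was 0.0568 without breeder diet + fluoxetine replicate 9 and 0.0519 without breeder diet + fluoxetine replicate 13. Without the 4 libraries of highest share of counts in mitochondrial gene copies, all with fluoxetine, the ratio was 0.851-fold and did not pass (exact permutation p = 0.0164, adjusted p = 0.229). Csn3 per Wap was 0.791-fold (exact permutation p = 0.0247, adjusted p = 0.173). The choice of Wap or Csn2 as the denominator thus decided whether a ratio passed.

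The ratio of Wap to Csn2 was spread more widely in the fluoxetine groups. With saline it ran from 1.03 to 1.54 (median 1.19) on the breeder diet and from 1.07 to 1.35 (median 1.22) on the FA diet. With fluoxetine it ran from 1.06 to 1.87 (median 1.26) and from 0.989 to 1.98 (median 1.18). Replicates 5 and 9 of breeder diet + fluoxetine (1.87 and 1.73) and replicates 5 and 6 of FA diet + fluoxetine (1.98 and 1.73) lay above every saline dam, and the other fluoxetine dams lay within 0.989 to 1.41. In 3 of these 4 libraries, the share of counts in the 6 mitochondrial gene copies was above that of all others but FA diet + fluoxetine replicate 3: 6.78% in breeder diet + fluoxetine replicate 9, and 5.12% and 5.28% in replicates 5 and 6 of FA diet + fluoxetine, against at most 3.93%. The mean ratio was 1.08-fold with fluoxetine (exact permutation p = 0.261) and 0.993-fold (exact permutation p = 0.901) without the 4 libraries of highest mitochondrial share. The part of the mitochondrial share in these ratios and the difference in spread were not tested.

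**Figure D4:**
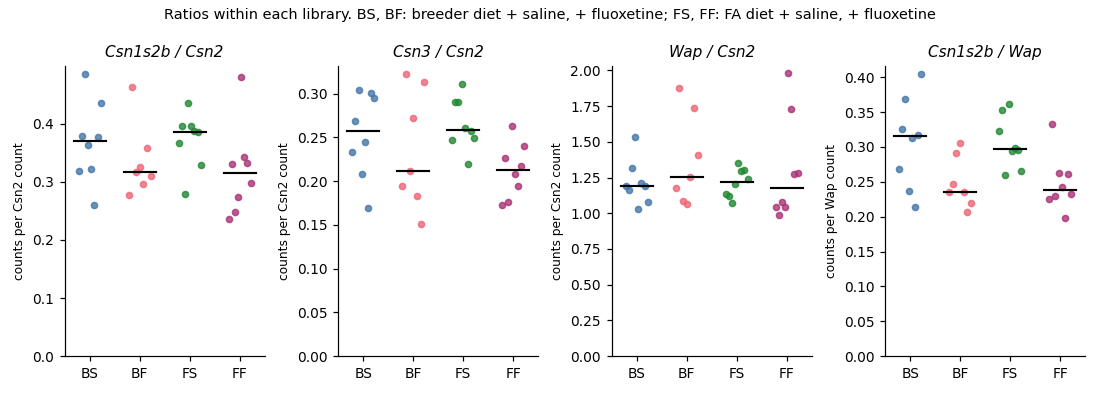
Counts of Csn1s2b, Csn3 and Wap per Csn2 count, and of Csn1s2b per Wap count, with 1 point per library and a line at the median of each group. Csn1s2b per Wap is below the saline median of its diet in 14 of 15 fluoxetine dams, and 4 fluoxetine dams lie above all saline dams for Wap per Csn2.

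Across dams, the 8 genes moved together to different degrees. Correlations were taken over log2 CPM after the mean of each group was removed, so that points share the scaling of their library, which adds a common part to every pair. Over 31 libraries, Pearson's r lay between 0.56 and 0.99 for the 28 pairs, with a median of 0.89, and 24 pairs passed 0.05 by permutation within groups with adjustment. These values rest in part on 1 library: without FA diet + fluoxetine replicate 3, r lay between -0.12 and 0.96 with a median of 0.59, and 18 pairs passed. Left without the 2 libraries farthest from the median of the first gene, r lay between -0.058 and 0.96 with a median of 0.62. Within single groups, the median r was 0.17 in breeder diet + saline (n = 8) and 0.72 in breeder diet + fluoxetine (n = 7). It was 0.88 in FA diet + saline (n = 8) and 0.25 in FA diet + fluoxetine without replicate 3 (n = 7). In breeder diet + fluoxetine, replicate 13 had the lowest level of each of the 8 genes. In FA diet + saline, replicate 3 was lowest in every gene but Glycam1, in which it was highest. Medians without these libraries are not given, so the group medians were not compared.

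Csn1s2a and Csn2 were the closest pair, with r = 0.99 over 31 libraries, 0.96 without FA diet + fluoxetine replicate 3 (adjusted permutation p = 1.40e-04, rho = 0.93) and 0.93 to 0.98 within each group once that library was left out. Their ratio is free of the scaling and had the smallest spread of the 28 pairs, with an SD within groups of 0.103 on the log2 scale in the 30 libraries. Csn1s1 and Csn2 came next (r = 0.98, and 0.90 in 30 libraries), with an SD of their log2 ratio of 0.154. Csn1s1 was also close to Csn1s2b (0.89 in 30 libraries) and to Wap (0.84), although Wap lies on another chromosome. Within breeder diet + saline, however, r was 0.02 for Csn1s1 and Csn1s2b and -0.016 for Csn1s2b and Csn2. Csn1s1 and Csn1s2b were at 0.83 to 0.98 within the other groups once FA diet + fluoxetine replicate 3 was left out. Csn1s1 and Wap were then at 0.68 to 0.92 within each group. Other low libraries stayed in these values. Breeder diet + fluoxetine replicate 13 was the lowest of its group in Csn1s1 and Csn1s2b (53.6 and 20.4 kCPM). FA diet + saline replicate 3 was the lowest of its group in both (83.4 and 31.6 kCPM).

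Csn3 went less with the rest. In the 30 libraries its r was 0.69 with Csn1s2a, 0.60 with Lalba (adjusted permutation p = 0.00250) and 0.21 with Wap (adjusted permutation p = 0.456). Over all 31 the Csn3 and Wap pair had r = 0.86, and without the 2 farthest libraries it had 0.32, so that this relation rested on those libraries. Glycam1 had r of 0.28 or below with each of the other 7 genes in the 30 libraries, where all 7 had been between 0.56 and 0.80 in the 31. Within FA diet + saline, Glycam1 was at -0.49 to -0.78 with the others, and within breeder diet + fluoxetine at 0.10 to 0.80 (n = 8 and n = 7). FA diet + saline replicate 3 had the highest Glycam1 of its group (21.9 kCPM). It also had the lowest Csn1s1, Csn2 and Wap of that group (83.4, 113 and 122 kCPM). Values of r in that group without this library are not given. Lalba and Glycam1 had the widest log2 ratio of all pairs (SD 0.616).

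**Figure D5:**
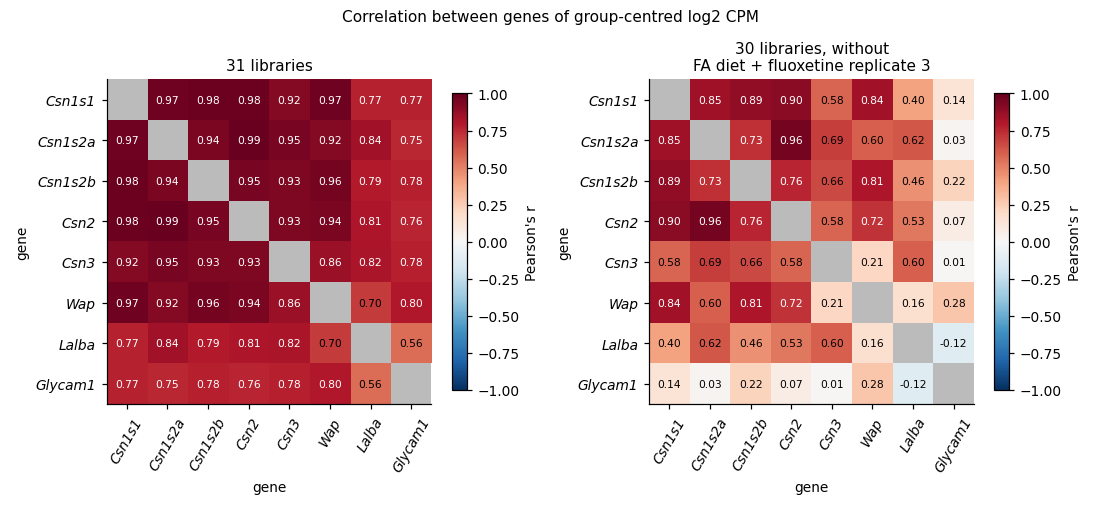
Pearson's r between the genes over group-centred log2 CPM, for all 31 libraries and for the 30 without FA diet + fluoxetine replicate 3. The pairs among Csn1s1, Csn1s2a, Csn1s2b and Csn2 stay at 0.73 or above, while the Glycam1 row falls from 0.56 to 0.80 to between -0.12 and 0.28.

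Among 4702 other genes with a mean of at least 10 CPM, those whose group-centred levels were most like the mean of the 8 members over 31 libraries were Prdx4 (r = 0.97), Ssr4, Folr1, Rabac1 and Nucb2 (each 0.96). The most opposite were Sparcl1, Bgn (each -0.84) and Lyz2 (-0.83). In the 30 libraries the first 5 were Rabac1 (0.85), Arl4a and Prdx4 (each 0.84), Kat2b and Mbd2 (each 0.78), and the most opposite were Plekhg3 (-0.74), Wfdc17 (-0.71) and Slpi (-0.70). Prdx4 encodes a peroxiredoxin of the endoplasmic reticulum, and Ssr4 a subunit of the complex at the protein channel of that membrane. For single members, Wap was closest to Wfdc3, another gene of the whey acidic protein domain family (0.99, and 0.95 in the 30 libraries). Csn3 was closest to Qsox1, a sulfhydryl oxidase (0.98 and 0.86), and Csn2 and Csn1s2a to Folr1, a folate receptor (0.96 and 0.97, and 0.82 and 0.86 in the 30 libraries). Csn1s1 and Csn1s2b were closest to Rabac1 (0.96 each, and 0.86 and 0.84). The nearest genes of Lalba and Glycam1 changed with that 1 library, from Cd99l2 (0.89) to Abhd17c (0.84) and from Plpp4 (0.88) to Aldh1l1 (0.64). These are the highest of many correlations and are given as a description.

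The genes around the caseins were nearly silent in these glands. Of 35 annotated genes in the cluster and within 200 kb of it, caseins included, 31 had a row of counts, 12 of these were at 0 in every library, and 3 besides the caseins passed the filter. They were Sult1d1, a sulfotransferase (mean 3.14 CPM), and Odam (1.37 CPM) and Prr27 (1.17 CPM), which lie between Csn1s2b and Csn3. The highest total of a neighbour was 2062 counts for Sult1d1, against 24674422 for Csn3, the casein with the fewest. With the mean of the caseins, Odam had r = 0.80, Sult1d1 0.77 and Prr27 0.47 over 31 libraries, and 0.31, -0.038 and -0.18 without FA diet + fluoxetine replicate 3. The long noncoding gene Gm42794 runs antisense across Csn1s2a and Csn1s2b and 1700066N21Rik across Csn3. They had 33 and 4 counts in all. The strand option of the counting is not given in the sources used here.

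A list of 12 other secreted and fat globule milk proteins was set beside the members. With fluoxetine, 0 of 12 passed the FDR, 9 fitted values were below 0 (46.5% of all genes were), and the median was -0.088 against 0.019 for all genes. In the fit without FA diet + fluoxetine replicate 3, 6 of 12 were below 0 and the median was -0.022. At an unadjusted p of 0.05 or below, 1 was higher and 0 lower, where 9.92% of all genes passed. It was Spp1, which encodes osteopontin, at 1.92 (SE 0.720, adjusted p = 0.416 in edgeR's quasi-likelihood test). On the breeder diet its levels were 48.2 to 181 CPM with saline (median 82.4) and 72.5 to 5851 with fluoxetine (median 175). On the FA diet they were 33.1 to 2542 CPM with saline (median 66.2) and 13.7 to 1585 with fluoxetine (median 361). The 3 highest were in breeder diet + fluoxetine replicate 13, FA diet + saline replicate 3 and FA diet + fluoxetine replicate 3, which are also 3 of the 5 libraries of lowest milk protein share. Without breeder diet + fluoxetine replicate 13, the fitted value of Spp1 was 0.94 and its unadjusted p was above 0.05. Cd36 and Muc15 had the next smallest p, both at -0.29 with adjusted p of 0.539 and 0.602 in edgeR's test.

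For the FA diet, 0 of the 12 passed the FDR or an unadjusted p of 0.05, and the median was -0.018, or 0.060 without FA diet + fluoxetine replicate 3. The smallest p belonged to Ltf (-0.24), Xdh (-0.20) and Btn1a1 (-0.22), which encode lactoferrin, xanthine dehydrogenase and butyrophilin. For the interaction, 0 passed the FDR and 11 of 12 values were below 0 (median -0.44), where 46.0% of all genes were. In the fit without FA diet + fluoxetine replicate 3, 8 of 12 were below 0 (median -0.27). Ltf (-0.89) and Spp1 (-2.99, adjusted p = 0.977 for both by edgeR) were lower at an unadjusted p of 0.05, where 3.84% of all genes passed, and Lpo was at -0.61. Without breeder diet + fluoxetine replicate 13, which had the highest Ltf and Spp1, these became -0.42 and -1.04, with unadjusted p above 0.05.

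A further list held 22 genes of prolactin and hormone signalling and of the handling of milk proteins, lactose and calcium. With fluoxetine, 0 of 22 passed the FDR, 18 fitted values were below 0 (46.5% of all genes were), and the median was -0.14. In the fit without FA diet + fluoxetine replicate 3, 15 were below 0 and the median was -0.081. At an unadjusted p of 0.05 or below, 2 were higher and 1 lower, where 9.92% of all genes passed. Gata3, a factor of luminal cells, had medians of 28.5 and 45.2 CPM with saline and fluoxetine on the breeder diet and of 27.6 and 34.2 CPM on the FA diet, and its groups overlapped. Its fitted value was 0.42 (SE 0.139, adjusted p = 0.360 in edgeR's quasi-likelihood test), and 0.30 without FA diet + fluoxetine replicate 3 (SE 0.118, adjusted p = 0.459 by the same edgeR test). Nfib, of the NF1 factors, was at 0.33 (adjusted p = 0.409 by edgeR), and Socs2, an inhibitor of cytokine signalling, at -0.38 (adjusted p = 0.441 by edgeR). They were at 0.34 and -0.38 without FA diet + fluoxetine replicate 3. Of the prolactin pathway itself, the receptor gene Prlr was at -0.0034 (SE 0.130), Jak2 at -0.057 (SE 0.127), Stat5a at -0.040 (SE 0.150) and Stat5b at -0.18 (SE 0.0944). B4galt1, the partner of alpha-lactalbumin in lactose synthesis, was at -0.11 (SE 0.175).

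For the FA diet, 0 of the 22 passed the FDR, and Ehf, an epithelial factor, was lower at an unadjusted p of 0.05, where 5.08% of all genes passed (-0.44, SE 0.172, adjusted p = 0.933 in edgeR's quasi-likelihood test), followed by Akt1 (-0.17) and Stat5a (-0.21). The median was -0.062, or -0.034 without FA diet + fluoxetine replicate 3. For the interaction, 0 of 22 passed either threshold, the median was -0.063, or -0.034 without that library, and the smallest p belonged to Ugp2 (-0.40), Slc2a1 (-0.39) and Elf5 (-0.27).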

How the data were processed

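Mammary RNA of 31 dams was sequenced from poly-A captured libraries on a NovaSeq. Per the methods and labels, reads were trimmed with Trim Galore (0.4.4), aligned with Hisat2 to GRCm39 and assigned to genes with htseq-count. The deposited values are the authors' raw counts per Ensembl gene, with no normalization. The methods give 8 and 7 dams for the fluoxetine groups on breeder and FA diet, while the labels give 7 and 8, and the labels were followed. Libraries of a group were distinct (chi-square of their counts at least 14.4 per degree of freedom).

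Symbols, positions and lengths came from GENCODE vM39, which lacked 667 of the 55379 genes. Promoters are RefSeq sequences (GRCm38.p6) placed on GRCm39 by exact match. In R 4.3.3, edgeR 4.0.16 filtered genes with filterByExpr, scaled by TMM and fitted the 4 group means with robust quasi-likelihood. Contrasts were fluoxetine, FA and their interaction, at an FDR of 10%. The SE came from the log2 difference and the F statistic. The test was tested on simulated data. Log2 CPM carried a prior count of 2, and correlations used 100000 permutations within groups. Alternatives were the likelihood ratio test, DESeq2 1.42.0, other scalings, filters and denominators, a replicate block and each dam left out. Dropping FA diet + fluoxetine replicate 3 from correlations and nearest genes, the canonical length, the total without ribosomal and mitochondrial copies and the ratios without the 4 libraries of highest mitochondrial share were chosen after seeing the data.

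The members and lists were chosen with earlier results of these data known. Named are the members, list genes whose unadjusted p was at most 0.05 or among the 3 smallest, the 5 most like, the 3 most opposite and the nearest gene of each member, and neighbours of the caseins past the filter.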

Additional observations from a re-analysis of the deposited data

Results flagged for a closer look

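In 64 sets of values from the groups of 7 or 8 libraries, 18 had a highest or lowest library whose gap to the others passed Dixon's 95% limit, where chance gives about 1 in 20 (3.2 of 64). These sets share libraries and genes. FA diet + fluoxetine replicate 3 was the lowest of its group in the share of counts of Csn1s1 (3.26%), Csn1s2b (1.02%), Csn2 (4.09%), Csn3 (0.721%), Wap (4.42%) and all 8 genes (17.7%). In the same library the ratio of Csn1s2a to Csn2 was the highest of the group, at 0.895. Breeder diet + fluoxetine replicate 13 was the lowest of its group in Csn1s1 (8.38%), Csn1s2b (3.19%) and the share of the 8 genes (49.8%). Breeder diet + fluoxetine replicate 5 was the highest of its group in Glycam1 (2.24%), in Glycam1 per Csn2 (0.197) and in Csn1s1 per Csn2 (1.16). FA diet + saline replicate 3 was the highest in Glycam1 (2.73%) and Glycam1 per Csn2 (0.193). FA diet + fluoxetine replicate 5 was the highest in Csn1s1 per Csn2 (1.03) and Csn1s2b per Csn2 (0.480). Breeder diet + saline replicate 10 was the lowest in Csn1s2a per Csn2 (0.608).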

How the results depend on the processing

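None of the 8 genes passed the FDR of 10% in any contrast under any alternative fit run, each left-out dam included. The count over all genes for fluoxetine was 3 in the main fit, 45 with the likelihood ratio test, 70 with DESeq2, 1 with no filter, and 0 with library size alone and with a replicate block. With library size alone, signs turned for fluoxetine in Glycam1 (0.028), for the FA diet in Csn1s1 (-0.093), Csn1s2a (-0.076), Csn1s2b (-0.031), Csn2 (-0.022), Csn3 (-0.030), Wap (-0.041), Lalba (-0.083) and Glycam1 (-0.021), and for the interaction in Csn2 (0.020) and Lalba (0.21), while the median of all genes moved to 0.26 for fluoxetine and 0.47 for the interaction. Whether replicate numbers pair the dams was not tested. Of 28 pairs with a shared number in different groups, 12 had a correlation of deviations above 0.1. Their median was 0.0791, against -0.00699 for 332 pairs with different numbers. With the number as a replicate block, the fluoxetine median of the 8 genes was -0.33, and the FA values of Csn1s1 (-0.040) and Lalba (-0.0044) turned sign. With Wap as the denominator, 1 fluoxetine ratio passed in place of 0, and signs turned for Csn1s1 (-0.076), Csn1s2a (-0.059) and Lalba (-0.029) with fluoxetine and for Csn1s2b (0.0074) and Csn3 (0.026) with the FA diet. The correlation of Lalba and Glycam1 turned to -0.058 without the 2 farthest libraries and to -0.12 without FA diet + fluoxetine replicate 3. With each dam left out, signs turned within these ranges: for fluoxetine, Glycam1 from -0.11 to 0.052; for the FA diet, Csn1s1 from -0.033 to 0.11, Csn1s2a from -0.012 to 0.12, Lalba from -0.069 to 0.094 and Glycam1 from -0.030 to 0.14; for the interaction, Lalba from -0.27 to 0.052. In ratios to Csn2 they turned for Csn1s1 (-0.0043 to 0.047) and Lalba (-0.00011 to 0.12) with fluoxetine and for Csn1s2b (-0.077 to 0.0082), Csn3 (-0.063 to 0.029), Wap (-0.086 to 0.00082) and Glycam1 (-0.14 to 0.036) with the FA diet. Without ribosomal and mitochondrial copies in the total, the mean shares with saline and fluoxetine were 70.8% and 68.1% on the breeder diet. On the FA diet they were 71.2% and 64.8%, so that the order of the saline groups turned. The mean of FA diet + fluoxetine was 70.8% ± 2.2 (SD, n = 7) without its replicate 3. Without the 4 libraries of highest mitochondrial share, the fluoxetine values of Csn1s1 (-0.0092) and Wap (-0.010) per Csn2 turned sign. The causes of these moves were not tested. The common dispersion over all genes tested was 0.169. The SEs of the 8 fluoxetine values ran from 0.183 to 0.224 with all libraries and from 0.101 to 0.144 without FA diet + fluoxetine replicate 3. What limited the precision was not tested.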
